A study of Mus musculus with 12 samples.

Results

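The immunoglobulin genes encode the heavy and light chains of antibodies, and in a solid tissue their transcripts come mainly from plasma cells. They were read here across kidneys of 12 C57BL/6J mice at 6 months of age, 4 in each of 3 groups. WT mice carried normal Pkd1, RC/RC mice were homozygous for the hypomorphic RC missense allele of Pkd1, a slowly progressive model of autosomal dominant polycystic kidney disease, and RC/RC:Casp1KO mice carried the same allele with a germline, TALEN-made knockout of Casp1, which encodes the inflammasome protease Caspase-1. Each group held 2 males and 2 females per the labels, which could not be tied to single count columns, and polyadenylated RNA of whole kidney was sequenced. Members were the table rows typed as immunoglobulin genes or named Igha, Ighd, Ighe, Ighg, Ighm, Ighv, Igk, Iglc, Iglj or Iglv, plus the J chain gene (Igj), and they were selected on their counts, with 10 or more summed over the 12 mice. The rule took 206 of 35275 rows. Of these, 20 were T cell receptor segments that the table types as immunoglobulin genes, and they are described apart. The other 186 comprised 87 heavy, 78 kappa and 3 lambda variable genes, 8 joining genes, 7 heavy chain constant genes, 1 kappa and 1 lambda constant gene, and Igj. Just inside the minimum was Ighv8-11 with 11 counts, and just outside was Igkv7-33 with 9.

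An antibody joins 2 heavy chains with 2 light chains. Each chain pairs a variable region with a constant region that sets its class. The variable region is assembled during B cell development from variable and joining segments and, in heavy chains only, diversity segments. IgM is the first class made, and class switching replaces Ighm with Ighg, Ighe or Igha. The J chain links IgA dimers and IgM pentamers. Plasma cells, the end stage of the B lineage, devote much of their RNA to these genes, so a few such cells can be seen in bulk tissue.

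The libraries held between 18019819 and 24869454 counts per mouse, of which immunoglobulin genes took 608 to 2103 counts in WT mice, 28166 to 59452 in RC/RC mice and 10316 to 33230 in RC/RC:Casp1KO mice. Levels are given as CPM, the counts of a gene relative to the counts of its library after scaling by TMM factors of all 12 libraries, and 3 counts, the limit taken for a gene at 0, corresponded to between 0.115 and 0.166 CPM. Values by mouse follow the order B6_2, B6_3, B6_4 and B6_6 (WT), RC105, RC139, RC140 and RC143 (RC/RC), and Del3_42, Del3_60, Del3_70 and Del3_105 (RC/RC:Casp1KO), the names in the deposited table. Casp1 was at 2.05, 1.29, 1.31 and 1.41 CPM in WT mice, 3.33, 3.86, 4.24 and 2.62 CPM in RC/RC mice and 0.665, 0.382, 1.06 and 0.667 CPM in RC/RC:Casp1KO mice, and fell in the knockout against RC/RC kidneys (log2 fold change -2.35 ± 0.32, SE, adjusted p = 0.00514, edgeR quasi-likelihood test). Pkd1, which carries a missense allele, was not called in that fit for RC/RC against WT (log2 fold change 0.06 ± 0.20, adjusted p = 0.878), and its level does not check the genotype. Gene counts of Casp1 do not read the deletion itself.

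Antibody transcripts were far more abundant in cystic kidneys than in WT kidneys. Summed over the 186 genes they reached 66.3, 90.4, 106 and 28.6 CPM in WT mice, 1769.9, 3147, 1512 and 1581 CPM in RC/RC mice and 693, 514, 1529 and 492 CPM in RC/RC:Casp1KO mice. No RC/RC or RC/RC:Casp1KO mouse overlapped the WT mice. The ratio of group means was 27.5 for RC/RC over WT, 11.1 for RC/RC:Casp1KO over WT and 0.403 for RC/RC:Casp1KO over RC/RC. RC/RC:Casp1KO mouse Del3_70 reached the level of the 3 lower RC/RC mice, while its 3 group mates lay below every RC/RC mouse. In whole kidney, fewer cells of a type and less RNA per cell cannot be told apart. Members were chosen with these results known, so a sum over them has no test.

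The constant genes carried most of these counts. Igha, the heavy chain of IgA, was at 23.7, 34.00, 18.4 and 7.16 CPM in WT mice, 556, 851, 538 and 481 CPM in RC/RC mice and 221, 157, 555 and 143 CPM in RC/RC:Casp1KO mice. It rose in RC/RC against WT kidneys (log2 fold change 4.87 ± 0.46, SE, adjusted p = 0.000377, edgeR quasi-likelihood test with Benjamini-Hochberg adjustment over 15243 genes) and in RC/RC:Casp1KO against WT (3.70 ± 0.59, adjusted p = 0.0194). Igkc, the constant region of kappa light chains, was at 13.5, 21.3, 27.1 and 6.64 CPM in WT mice, 447, 933, 426 and 403 CPM in RC/RC mice and 179, 132, 381 and 119 CPM in RC/RC:Casp1KO mice. It rose by the same fits (5.01 ± 0.49, adjusted p = 0.000441, and 3.57 ± 0.52, adjusted p = 0.0137). Both comparisons with WT use the same 4 WT mice. Without WT mouse B6_2 the calls of Igha and Igkc in RC/RC:Casp1KO against WT were lost (adjusted p = 0.0626 and 0.052), and without RC/RC:Casp1KO mouse Del3_70 the log2 fold change of Igha in that comparison was 3.06. Per gene length, Igkc was the most abundant constant gene in RC/RC kidneys at 1709.6 CPM per kilobase, beside 587 for Igha and 122 for Igj. The strand setting of the counts is not given, so reads of Igkc and of Gm68839, which matched it over 521 bases, cannot be told apart.

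**Figure D1:**
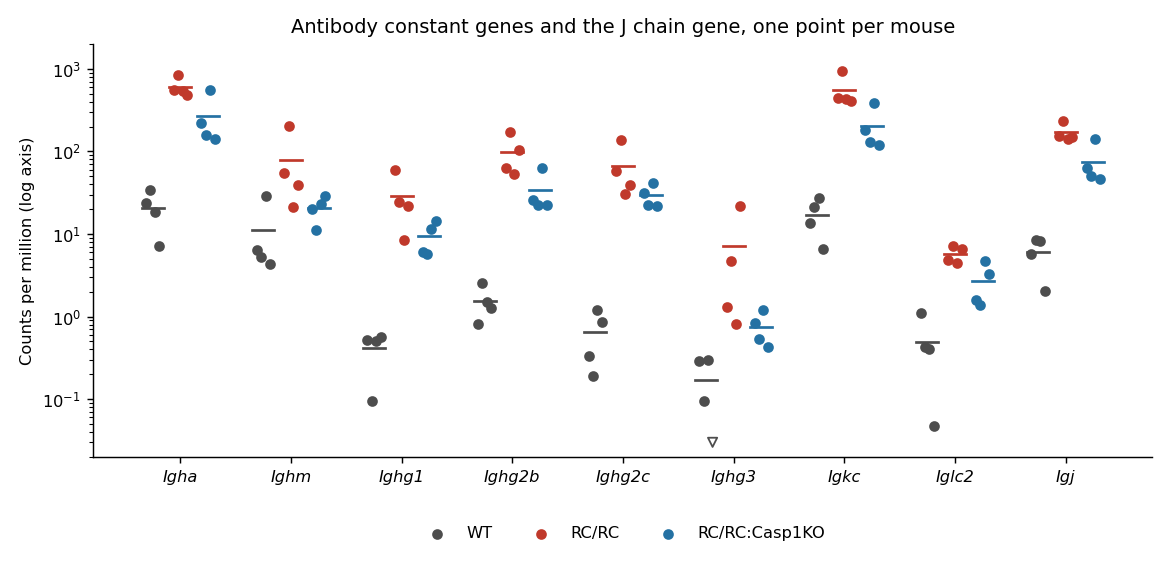
CPM (log axis) of 8 constant genes and Igj in each of the 12 mice (points), with group means (lines); the open triangle is a mouse with 0 counts, drawn at the axis floor. The RC/RC mice lie above all WT mice for every gene but Ighm, and RC/RC:Casp1KO mouse Del3_70 lies at or near RC/RC levels for Igha, Igkc and Igj.

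Igj was at 5.77, 8.48, 8.197 and 2.03 CPM in WT mice, 155, 237, 140.1 and 151 CPM in RC/RC mice and 63.2, 50.02, 141 and 46.5 CPM in RC/RC:Casp1KO mice, and the cystic groups did not overlap WT. It rose in RC/RC (log2 fold change 4.80 ± 0.42, SE, adjusted p = 0.000278, edgeR) and in RC/RC:Casp1KO against WT (3.62 ± 0.51, adjusted p = 0.0127). All 8 fits that left out 1 mouse kept each call.

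The 4 IgG genes started from almost nothing. Ighg2b was at 0.8102, 2.52, 1.51 and 1.27 CPM in WT mice, 62.7, 173, 53.3 and 104 CPM in RC/RC mice and 25.9, 22.7, 63.5 and 22.7 CPM in RC/RC:Casp1KO mice. Ighg2c was at 0.334, 0.1905, 1.21 and 0.848 CPM in WT mice, 57.6, 139, 30.9 and 38.9 CPM in RC/RC mice and 31.4, 22.6, 42.01 and 21.7 CPM in RC/RC:Casp1KO mice. Ighg1 was at 0.524, 0.0952, 0.503 and 0.565 CPM in WT mice, 59.9, 24.7, 8.48 and 21.7 CPM in RC/RC mice and 6.04, 5.69, 11.4 and 14.2 CPM in RC/RC:Casp1KO mice. These 3 genes rose in RC/RC kidneys by 6.00, 6.69 and 6.07 on the log2 scale (SE 0.49, 0.67 and 0.69) and in RC/RC:Casp1KO kidneys against WT by 4.46, 5.51 and 4.46. Their highest adjusted p in these fits, for Ighg1 in RC/RC:Casp1KO against WT, was 0.00354 (edgeR). Ighg3 stood apart, with 1.300, 4.76, 0.805 and 21.8 CPM in RC/RC mice, so that mouse RC143 held most of it. It rose against WT in that group (log2 fold change 5.36 ± 1.23, adjusted p = 0.0201, edgeR), a call that fits without WT mouse B6_3 or WT mouse B6_6 lost (adjusted p up to 0.0586), and its log2 fold change was 3.70 without RC/RC mouse RC143. Those of Ighg1 and Ighg2c in RC/RC against WT were 5.40 without RC/RC mouse RC105 and 6.01 without RC/RC mouse RC139. Ighe, the IgE heavy chain, had no count in the WT mice and stayed below 1 CPM in every mouse.

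Ighm, the IgM heavy chain, overlapped between the groups. It was at 6.39, 5.33, 28.7 and 4.33 CPM in WT mice, 55.5, 201, 21.2 and 39.2 CPM in RC/RC mice and 20.3, 11.1, 22.96 and 28.5 CPM in RC/RC:Casp1KO mice. WT mouse B6_4 lay far above the other WT mice and within the range of the RC/RC mice. The change was not called in RC/RC against WT (log2 fold change 2.82 ± 0.83, adjusted p = 0.0532, edgeR) or in RC/RC:Casp1KO against WT (0.89 ± 0.60, adjusted p = 0.3995), whereas DESeq2 called the first (adjusted p = 0.0168), as did edgeR without WT mouse B6_4 or without RC/RC mouse RC140 or RC143. Of 6 other settings that kept all mice, DESeq2 among them, only 3 left the change in RC/RC against WT not called. The log2 fold change of Ighm in RC/RC against WT was 3.85 without WT mouse B6_4 and 1.76 without RC/RC mouse RC139. In RC/RC:Casp1KO against WT it was 1.93 without WT mouse B6_4, where it was called (adjusted p = 0.0288). A difference in response between Ighm and the other classes was not tested. Iglc2, a lambda light chain constant gene, rose in RC/RC kidneys (3.53 ± 0.56, adjusted p = 0.00408) from a mean of 0.494 ± 0.438 CPM (SD, n = 4) to 5.74 ± 1.26 CPM (SD, n = 4), and its log2 fold change was 4.27 without WT mouse B6_2.

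IgA made up most of the heavy chain counts in nearly all kidneys. Igha took 74.0%, 80.5%, 36.3% and 50.5% of heavy chain constant counts in the WT mice, 70.03%, 61.0%, 82.4% and 68.1% in the RC/RC mice and 72.3%, 71.5%, 79.7% and 62.0% in the RC/RC:Casp1KO mice. The ranges of the 2 cystic groups overlapped. WT mouse B6_4, with an Igha share of 36.3% (95% Clopper-Pearson interval 33.4% to 39.4%, counting error only), held 56.7% Ighm (53.6% to 59.8%). Ighm took 12.6% to 56.7% in WT mice, 3.24% to 14.4% in RC/RC mice and 3.30% to 12.4% in RC/RC:Casp1KO mice, and of the WT mice only mouse B6_3 fell within the range of the cystic mice. IgG genes together took 6.10% to 18.9% in WT mice, 14.3% to 26.4% in RC/RC mice and 17.0% to 25.7% in RC/RC:Casp1KO mice, and the highest WT share, 18.9% in mouse B6_6, rested on 301 heavy chain constant counts. Lambda took 3.10% to 26.3% of light chain variable counts in WT mice, 6.90% to 15.3% in RC/RC mice and 8.41% to 9.53% in RC/RC:Casp1KO mice. By constant genes, lambda took 0.754% to 1.59% in RC/RC mice, but of the lambda constant genes only Iglc2 was a member.

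**Figure D2:**
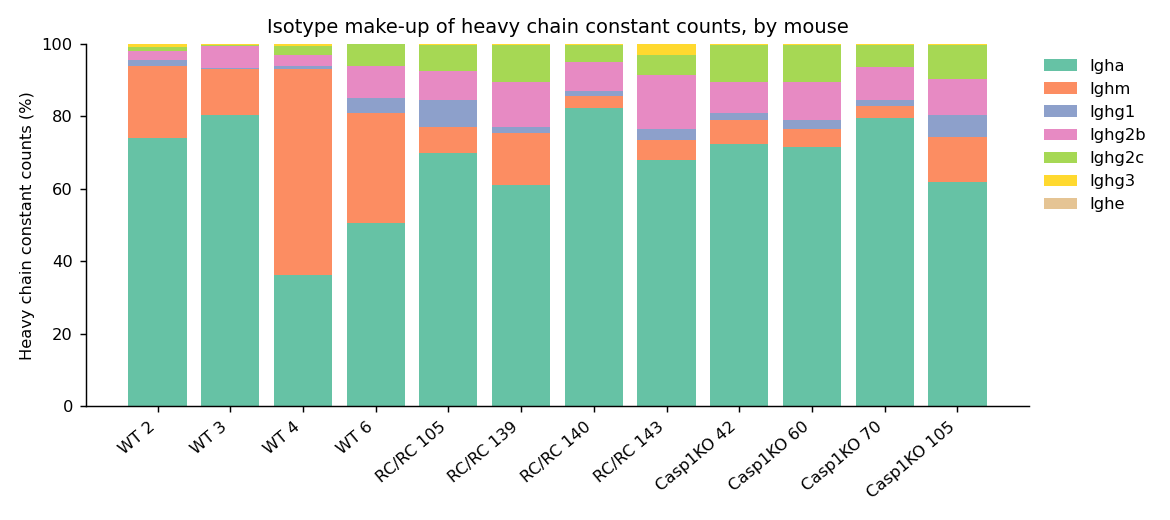
Share (%) of heavy chain constant counts taken by each heavy chain constant gene, one stacked bar per mouse. Igha is the largest part in every mouse but WT mouse B6_4, where Ighm takes 56.7%.

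Variable genes were higher in cystic kidneys as well. Of the 186 genes, 79 passed the filter on low counts in RC/RC against WT, and 75 of them were called, all higher, beside 9.76% of all genes tested that were called higher. The groups did not overlap in 73 of the 79, all higher, beside 12.6% of all genes tested that were higher without overlap and 7.06% lower, and 3.18% of all genes tested were called lower. Their median log2 fold change was 5.01, beside -0.02 over all genes tested. By class, 18 of 19 heavy variable, 46 of 48 kappa variable and 3 of 3 lambda variable genes were called, with 5 of 6 heavy constant genes. The 186 genes were retained mostly through the cystic mice, since 47 had 10 or more counts in WT mice alone and 36 had none there, so these counts are a description and not independent evidence. Among the 47, 36 of 40 tested were called in RC/RC against WT, and 13 of 32 in RC/RC:Casp1KO against WT. In RC/RC:Casp1KO against WT, 27 of 47 genes tested were called, all higher, beside 1.13% of all genes tested, with a median of 3.62. Without overlap, 38 were higher, beside 7.40% of all genes tested that were higher and 6.54% lower. The count of 27 fell to 13, 10 and 10 without WT mouse B6_2, B6_3 or B6_6 and to 14 without RC/RC:Casp1KO mouse Del3_60 or Del3_70.

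**Figure D3:**
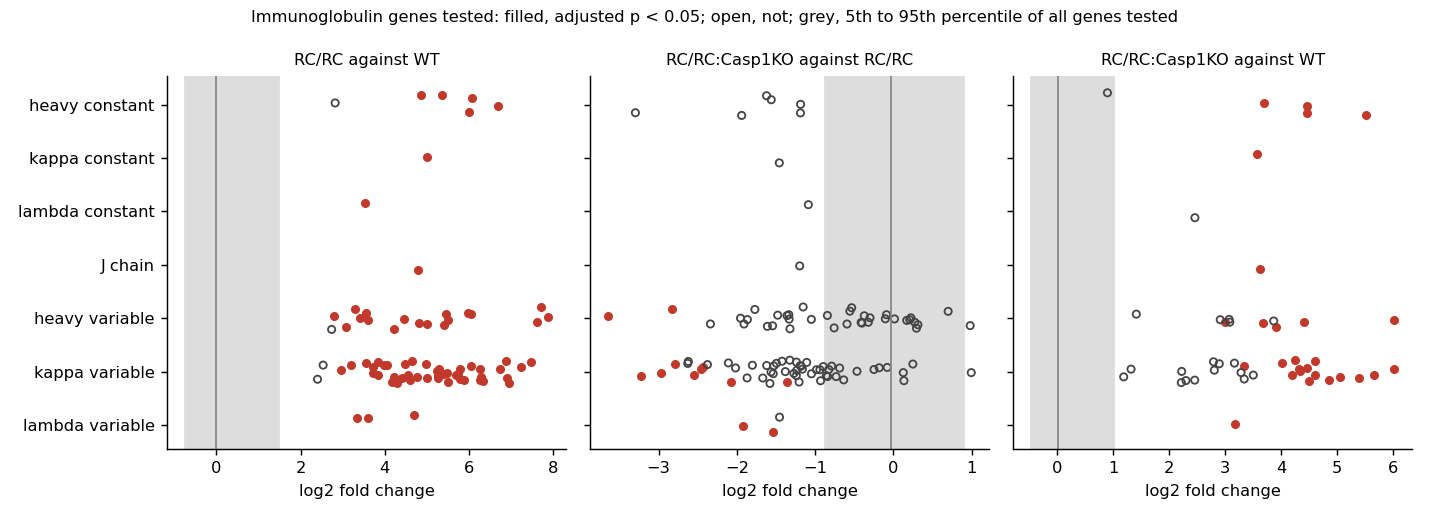
log2 fold changes of the immunoglobulin genes tested in each comparison, by class (points; filled at adjusted p under 0.05, edgeR), over the range from the 5th to the 95th percentile of all genes tested (grey) and their median (line). Against WT all points lie above 0, and in RC/RC:Casp1KO against RC/RC most lie below 0, with 12 of 103 filled.

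Igkv1-110 was the most abundant variable gene of the series. It was at 0.667, 0.381, 0.0503 and 0.141 CPM in WT mice, 37.1, 30.9, 22.7 and 59.7 CPM in RC/RC mice and 10.3, 6.53, 31.98 and 4.24 CPM in RC/RC:Casp1KO mice, and rose against WT in both cystic groups (log2 fold change 6.89 ± 0.53, adjusted p = 0.000153, and 5.39 ± 0.85, adjusted p = 0.0189, edgeR; the second call was lost without WT mouse B6_3 or B6_6, at an adjusted p up to 0.0673). Without WT mouse B6_2 the log2 fold changes were 7.56 and 6.06, and the second was 4.47 without RC/RC:Casp1KO mouse Del3_70. Igkv1-110 ranked first among kappa variable genes in 6 of the 8 cystic mice and took 28.2% of kappa variable counts in RC/RC mouse RC143 (95% interval 26.9% to 29.5%). Its nearest relative in sequence, Igkv1-117, ranked first in RC/RC:Casp1KO mouse Del3_105 at 12.3%. The pair is printed because reads could pass between them. Both lie on the plus strand of chromosome 6 in mm10 coordinates of the deposited table, Igkv1-110 at chr6:68270527-68271267 and Igkv1-117 at chr6:68121091-68121827. Their coding sequences, from GENCODE vM39 transcripts matched by gene ID and written 5′ to 3′, are 359 bases each and differ at 10 bases (97.2% identity). Bases 47 to 346 are shown, which hold all 10, and the differing bases stand in capitals:
Igkv1-110: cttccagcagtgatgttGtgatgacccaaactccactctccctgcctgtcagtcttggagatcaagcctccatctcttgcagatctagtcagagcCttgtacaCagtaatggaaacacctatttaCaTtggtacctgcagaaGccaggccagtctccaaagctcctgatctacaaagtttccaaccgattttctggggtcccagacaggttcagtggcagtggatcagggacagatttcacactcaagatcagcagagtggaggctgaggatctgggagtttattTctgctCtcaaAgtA
Igkv1-117: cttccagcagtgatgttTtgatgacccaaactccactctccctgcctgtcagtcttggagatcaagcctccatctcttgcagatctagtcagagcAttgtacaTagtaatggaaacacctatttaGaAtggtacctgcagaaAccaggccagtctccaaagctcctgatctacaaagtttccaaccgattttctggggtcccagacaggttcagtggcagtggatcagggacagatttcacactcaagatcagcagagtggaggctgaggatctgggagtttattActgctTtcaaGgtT
How the deposited counts treated reads that fit both genes is not given in the sources used here. In all, 101 of 186 genes had another gene at 95% identity or more over at least 100 bases, among them 55 heavy and 40 kappa variable genes but none of the 7 heavy constant genes. Levels of single variable genes are therefore uncertain where such a copy exists.

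Among heavy variable genes Ighv9-3 had the highest level per length in RC/RC kidneys, at 22.5 CPM per kilobase. It was at 0, 0.1905, 0.352 and 0.188 CPM in WT mice, 10.02, 8.05, 8.32 and 5.23 CPM in RC/RC mice and 0.6098, 0.764, 3.59 and 5.91 CPM in RC/RC:Casp1KO mice, and rose in RC/RC kidneys (log2 fold change 5.40 ± 0.52, adjusted p = 0.000406, edgeR). Ighv5-17 was at 4.63, 17.9, 3.97 and 3.82 CPM in RC/RC mice and Ighv1-81 at 7.07, 1.43, 7.57 and 0.729 CPM in RC/RC mice and 1.497, 3.02, 10.8 and 1.76 CPM in RC/RC:Casp1KO mice. Both varied several-fold within a group. Of variable genes called without overlap and at 1 CPM or more in every RC/RC mouse, those with the highest log2 fold changes against WT were Ighv2-9, Igkv3-2 and Igkv4-59. Igkv3-2 and Igkv4-59 rose by 7.47 ± 1.16 and 7.23 ± 0.73 (adjusted p = 0.00375 and 0.000529, edgeR) from 5 counts each in the WT mice together. Without RC/RC mouse RC139 these values were 6.15 and 6.65, and they reached 8.25 without WT mouse B6_4 and 8.02 without WT mouse B6_2. Ighv2-9 had 317 counts in the RC/RC mice and 1 in the WT mice, so no fold is given. In RC/RC:Casp1KO against WT the corresponding genes were Ighv1-81, Igkv1-110 and Igkv1-135, and Igkv1-135 rose by 4.61 ± 0.65 (adjusted p = 0.0127, and 5.34 without WT mouse B6_3). The call of Ighv1-81 there was lost without WT mouse B6_2, B6_3 or B6_6 (adjusted p up to 0.0676). The 8 joining genes summed to 0.0477, 0, 0.905 and 0.518 CPM in WT mice, 1.19, 0.953, 0.4295 and 0.686 CPM in RC/RC mice and 0.887, 1.11, 3.59 and 1.95 CPM in RC/RC:Casp1KO mice. None of them was tested in any comparison, and the mean of the RC/RC:Casp1KO mice was 2.32 times that of the RC/RC mice, with overlap. Lambda variable counts came mostly from Iglv1, at 1.33, 1.48, 0.302 and 0.707 CPM in WT mice, 23.5, 27.2, 15.03 and 34.1 CPM in RC/RC mice and 8.48, 6.11, 15.8 and 4.34 CPM in RC/RC:Casp1KO mice.

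The leading heavy variable gene was not the same in every mouse, though some mice shared one. For heavy chains the 8 cystic mice were led by Ighv1-9, Ighv5-17, Ighv9-3 and Ighv6-6 (RC/RC) and by Ighv1-26, Ighv1-81, Ighv1-81 and Ighv9-3 (RC/RC:Casp1KO), with shares between 8.07% and 17.7%. The largest heavy share stood in WT mouse B6_4, where Ighv3-6 held 30.8% of 143 heavy variable counts (23.3% to 39.0%) and Igkv15-103 held 20.5% of 219 kappa variable counts (15.4% to 26.5%). That mouse was also the one with the high Ighm share. RC/RC mice had a count in 74 to 79 heavy variable genes and RC/RC:Casp1KO mice in 72 to 82, against 20 to 42 in WT mice. These numbers come from unequal numbers of heavy variable counts per mouse. Thinned to 31 counts per mouse, the expected number of heavy variable genes was 15.7 to 21.0 in WT mice, 18.5 to 21.0 in RC/RC mice and 19.3 to 22.4 in RC/RC:Casp1KO mice. With 702 counts from each cystic mouse it was 63.4 to 71.0 in RC/RC and 72.0 to 76.7 in RC/RC:Casp1KO mice, groups that did not overlap. For kappa genes at 1084 counts the ranges, 65.9 to 69.1 and 64.3 to 72.1, overlapped. No test was made of these numbers. The Ighv1 family took 38.9% to 53.8% of heavy variable counts in RC/RC mice and 52.4% to 58.1% in RC/RC:Casp1KO mice.

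**Figure D4:**
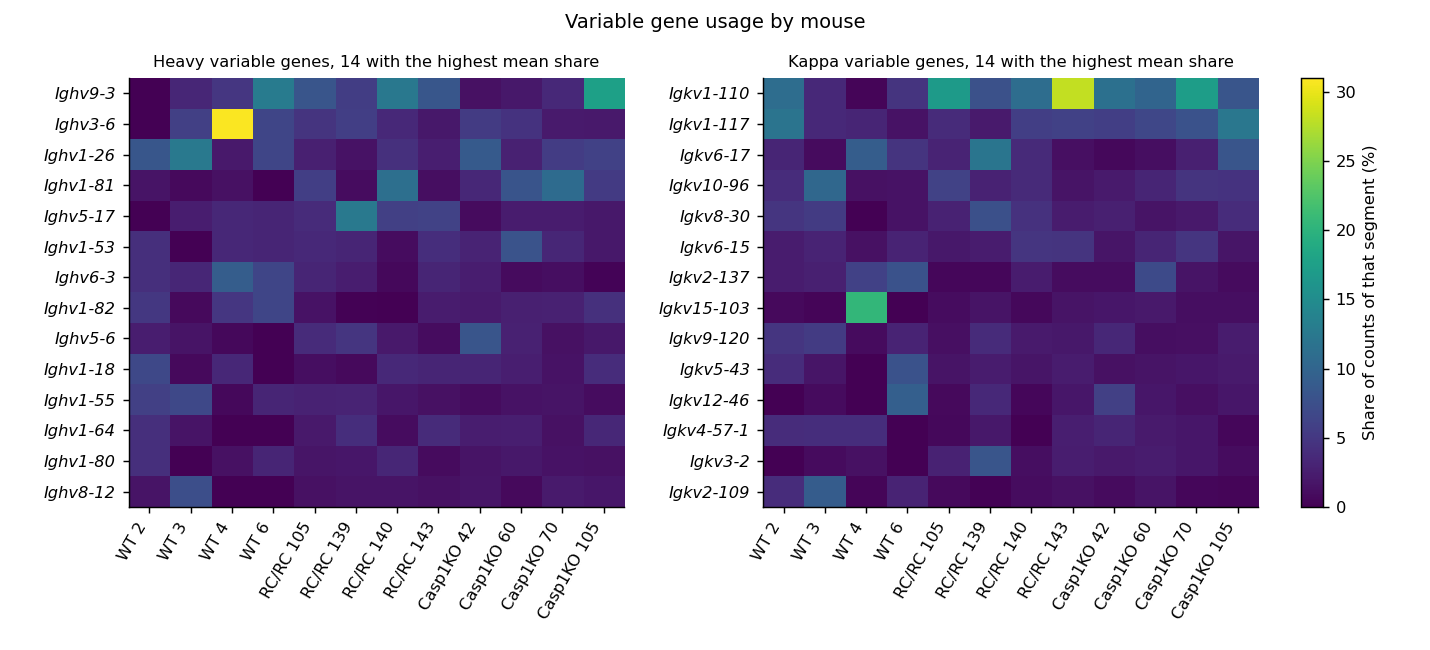
Share (%) of heavy (left) and kappa (right) variable counts taken by the 14 genes with the highest mean share, in each mouse (columns). Ighv3-6 and Igkv15-103 stand out in WT mouse B6_4 and Igkv1-110 in RC/RC mouse RC143.

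Between RC/RC:Casp1KO and RC/RC kidneys few antibody genes were called, and how many depended on the tool and on single mice. The summed levels of the 2 groups overlapped through RC/RC:Casp1KO mouse Del3_70. This comparison uses the same RC/RC and RC/RC:Casp1KO mice as those with WT. In RC/RC:Casp1KO against RC/RC, 90 of 103 genes tested had negative log2 fold changes, with a median of -1.21 beside -0.03 over all genes tested. By edgeR 12 were called, all lower (11.7% of those tested, beside 4.41% of all genes tested called lower), and all 12 were variable genes. The groups did not overlap, with lower values in the knockout, for 13 of the 103, beside 8.67% of all genes tested, and with higher values for none, beside 11.8%. Of all genes tested, 7.23% were called higher. None of the 8 constant genes tested was called, although all 8 had an unadjusted p under 0.05, beside 16.4% of all genes tested that were lower and 15.3% higher at that threshold. Igkc missed the threshold narrowly (log2 fold change -1.46 ± 0.41, adjusted p = 0.0502), with Ighg2b at -1.56 ± 0.45 (adjusted p = 0.05198), Igj at -1.20 ± 0.35 (adjusted p = 0.0536), Ighm at -1.94 ± 0.63 (adjusted p = 0.07301) and Igha at -1.19 ± 0.42 (adjusted p = 0.0892). DESeq2 called 36 of the 164 genes to which it gave an adjusted p, 35 of them lower, beside 7.87% of all genes called lower and 9.76% called higher by it. The 35 included Igj (adjusted p = 0.00483) and every constant gene tested but Ighg1, such as Igkc (adjusted p = 0.00226) and Igha (adjusted p = 0.0171). Without RC/RC:Casp1KO mouse Del3_70, edgeR too called Igkc, Ighg2b, Igha, Iglc2 and Igj, and without RC/RC mouse RC105 it called Igkc, Ighg2b and Ighg3. The log2 fold change of Igha was -1.81 without RC/RC:Casp1KO mouse Del3_70, and that of Ighm was -0.89 without RC/RC mouse RC139. The edgeR count was 26 without RC/RC:Casp1KO mouse Del3_70 and 19 without RC/RC mouse RC105. Of all genes tested, 14.85% and 18.6% were lower and 13.3% and 17.1% higher there at an unadjusted p under 0.05. The count was 3 without RC/RC mouse RC139 or RC/RC:Casp1KO mouse Del3_42, 2 without RC/RC mouse RC140 or RC/RC:Casp1KO mouse Del3_105, and 1 without RC/RC:Casp1KO mouse Del3_60. In those fits 9.95% to 14.3% of all genes tested were lower and 12.04% to 14.1% higher at that threshold.

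Of the 12 genes, Igkv4-59 kept its call in all 8 fits that left out a mouse. It was at 5.12, 19.6, 9.93 and 5.06 CPM in RC/RC mice and 1.66, 0.764, 1.38 and 0.477 CPM in RC/RC:Casp1KO mice, with no overlap, and fell by 3.23 on the log2 scale (SE 0.55, adjusted p = 0.0106, edgeR). Ighv2-9 was at 3.402, 4.55, 4.94 and 2.14 CPM in RC/RC mice and 0.166, 0.229, 0.782 and 0 CPM in RC/RC:Casp1KO mice and fell by 3.64 (adjusted p = 0.0159), a call lost without RC/RC mouse RC140 or RC/RC:Casp1KO mouse Del3_60 (adjusted p up to 0.0516). Without RC/RC mouse RC139 the log2 fold change of Igkv4-59 was -2.64, and without RC/RC:Casp1KO mouse Del3_70 that of Ighv2-9 was -4.73. Iglv1 and Iglv2 fell by 1.54 and 1.92 (adjusted p = 0.0367 and 0.0372), and each kept its call in 2 of 8 such fits (Iglv1 without RC/RC mouse RC105 or RC/RC:Casp1KO mouse Del3_70, Iglv2 without RC/RC mouse RC105 or RC139). These 2 genes are near copies of each other. Ighv1-81 was at nearly the same mean in both groups at 4.200 ± 3.62 CPM (SD, n = 4) and 4.26 ± 4.39 CPM (SD, n = 4). Igkv1-117 was not called (-0.47 ± 0.36, adjusted p = 0.402), with a negative log2 fold change in each fit without 1 mouse (-0.98 to -0.27) and a call without RC/RC:Casp1KO mouse Del3_70 (adjusted p = 0.0334).

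Genes that mark the B lineage rose in part. In RC/RC against WT, 9.76% of all genes tested were called higher and 3.18% lower, the shares to read beside each gene list. In the plasma cell list, 5 of 12 genes tested rose in RC/RC kidneys (median log2 fold change 0.49 over the 12). They were Pou2af1, a coactivator of immunoglobulin transcription (3.44 ± 0.47, adjusted p = 0.00231, edgeR), Irf4, a transcription factor that plasma cells require (2.62 ± 0.42, adjusted p = 0.00424), Mzb1, a chaperone of antibody secretion (2.03 ± 0.45, adjusted p = 0.0172), Sdc1, the surface proteoglycan CD138 (1.19 ± 0.15, adjusted p = 0.00138), and Slamf7 (1.04 ± 0.27, adjusted p = 0.0328). Pou2af1 was at 0.286, 0.1905, 0.654 and 0.141 CPM in WT mice, 2.83, 4.87, 2.201 and 4.03 CPM in RC/RC mice and 1.05, 1.18, 3.27 and 1.096 CPM in RC/RC:Casp1KO mice. Tnfrsf17, the plasma cell receptor BCMA, stayed below 1 CPM in every mouse. The list's summed level was set by Xbp1, its most abundant gene, which kidney epithelium also expresses. Sdc1, Prdm1, Ell2 and Fkbp11 of this list are likewise expressed by kidney epithelium or other non-lymphoid cells. In the B cell list 7 of 12 genes tested rose (median 1.39), among them Cd79a and Cd79b, which carry the signal of the B cell receptor (1.86 ± 0.31 and 1.39 ± 0.36), Ms4a1, which encodes CD20 (1.45 ± 0.42), Cd37 (1.40 ± 0.30), Spib (1.79 ± 0.48) and Fcrla (1.06 ± 0.30). Cd79a and Cd37 kept their calls in all 8 fits without 1 mouse, Cd79b and Spib in 2, Ms4a1 in 1 and Fcrla in none, and Slamf7 of the plasma cell list in 3 (adjusted p up to 0.144 for Ms4a1, 0.129 for Fcrla, 0.1102 for Spib, 0.0962 for Cd79b and 0.0936 for Slamf7). The calls of Ms4a1 and Fcrla each held under 1 of 5 other settings that kept all mice. Cd79a was at 1.096, 0.571, 0.905 and 0.518 CPM in WT mice, 2.41, 3.71, 2.52 and 2.62 CPM in RC/RC mice and 1.72, 0.916, 2.35 and 1.62 CPM in RC/RC:Casp1KO mice. Over both lists the count of 12 was 7 without WT mouse B6_3 or RC/RC mouse RC105 and 6 without RC/RC mouse RC139. In those fits 13.0% to 16.7% of all genes tested were higher and 9.27% to 14.2% lower at an unadjusted p under 0.05. Of the B cell development and class switch list, 1 of 3 genes tested was called, Mki67, a marker of dividing cells of any type, which rose (1.52 ± 0.28, adjusted p = 0.00842, edgeR). Vpreb1, which acts in B cell precursors, was at 1.38, 1.24, 0.855 and 1.41 CPM in WT mice, 1.15, 1.06, 0.859 and 0.643 CPM in RC/RC mice and 0.277, 1.15, 0.552 and 0.429 CPM in RC/RC:Casp1KO mice. It was present in all 12 mice and was not called (-0.40 ± 0.30, adjusted p = 0.396). Rag1 and Vpreb2, which act at the same stage, had no count in any mouse.

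In RC/RC:Casp1KO against RC/RC, 12 plasma cell and 13 B cell list genes were tested, and 4.41% of all genes tested were called lower. Of these lists, 3 genes fell by edgeR, namely Xbp1 (-0.82 ± 0.23, adjusted p = 0.0492), Sdc1 (-0.76 ± 0.18, adjusted p = 0.0294) and Cd79b (-0.95 ± 0.26, adjusted p = 0.0456). None was called without RC/RC mouse RC139 or RC140 or RC/RC:Casp1KO mouse Del3_42, Del3_60 or Del3_105, where 3 to 5 genes had an unadjusted p under 0.05, beside 9.95% to 14.3% of all genes tested that were lower and 12.04% to 14.1% that were higher in those fits. DESeq2 called 3. Against WT, 2 genes of these lists rose in RC/RC:Casp1KO kidneys by edgeR, beside 1.13% of all genes tested called higher. DESeq2 called 7 (6 higher, 1 lower, beside 4.58% and 3.44% of all genes). Any fit without 1 mouse called at most 1. The 2 genes included Mzb1 (1.86 ± 0.37, adjusted p = 0.0444, edgeR), which kept its call in 1 of the 8 fits without 1 mouse. Of 23 tested, 11 had an unadjusted p under 0.05, beside 11.8% of all genes tested that were higher and 9.99% lower at that threshold.

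Several signals that draw and keep B lineage cells rose in RC/RC kidneys. Of 14 tested, 7 rose, with a median of 1.19. They included Tnfsf13b, the survival factor BAFF (2.16 ± 0.37, adjusted p = 0.00558, edgeR), its receptor gene Tnfrsf13b, TACI (2.77 ± 0.50, adjusted p = 0.00728, and 3.46 without WT mouse B6_2), Cxcl12, a chemokine that retains plasma cells (1.12 ± 0.23, adjusted p = 0.0125), Cxcl13, which attracts B cells (1.82 ± 0.41, adjusted p = 0.0182, a call lost without WT mouse B6_2 or B6_3 or RC/RC mouse RC140, at an adjusted p up to 0.0573), Ltb (2.52 ± 0.38, adjusted p = 0.00325), Ccl21a (1.22 ± 0.23, adjusted p = 0.00901) and Tgfb1, which directs switching to IgA (1.15 ± 0.24, adjusted p = 0.0143). Tgfb1 was at 32.6, 22.05, 21.4 and 17.9 CPM in WT mice, 47.3, 72.3, 54.8 and 34.7 CPM in RC/RC mice and 17.02, 21.7, 32.4 and 22.4 CPM in RC/RC:Casp1KO mice. Kidney epithelium or other non-lymphoid cells also express Tgfb1 and Cxcl12. Tgfb1 and Ccl21a fell in RC/RC:Casp1KO against RC/RC (-1.17 ± 0.24, adjusted p = 0.02098, and -0.83 ± 0.19, adjusted p = 0.0272), and kept their calls in 5 and 3 of the 8 fits without 1 mouse (both were lost without RC/RC mouse RC140 or RC/RC:Casp1KO mouse Del3_60 or Del3_105, and Ccl21a also without RC/RC mouse RC139 or RC/RC:Casp1KO mouse Del3_42). Of 9 antibody receptor and transport genes tested, 3 rose and 1 fell in RC/RC kidneys. Among receptors for IgG, Fcgr1 rose by 2.19 ± 0.34, Fcgr3 by 1.39 ± 0.18 and their signalling chain Fcer1g by 1.68 ± 0.28, while Fcgr4 (0.72 ± 0.29, adjusted p = 0.137) and the inhibitory receptor Fcgr2b (-0.43 ± 0.22, adjusted p = 0.223) were not called. Fcgrt, the neonatal Fc receptor that recycles IgG, fell in RC/RC:Casp1KO against WT (-0.85 ± 0.08, adjusted p = 0.000883, edgeR), a call kept in all 8 fits without 1 mouse, and was called lower in RC/RC against WT (-0.48 ± 0.13), a call kept in 1 of 8. Pigr, which carries IgA across epithelium, was not called in any comparison.

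Other immune cell markers moved with the antibody genes. Of 10 T cell genes tested, 8 rose in RC/RC against WT (median 1.92), and of 9 macrophage genes 8 rose (median 1.68). Among them Cd3g, Cd4 and Itgax kept their calls in 3, 6 and 4 of the 8 fits without 1 mouse (adjusted p up to 0.0882, 0.0542 and 0.0714, edgeR). The call of Itgax held under 5 of 6 other settings that kept all mice. In RC/RC:Casp1KO against RC/RC no T cell gene was called, and C1qa, C1qb and Cd14 of the macrophage list fell (-1.22 ± 0.34, -1.09 ± 0.30 and -1.12 ± 0.25), with C1qa and C1qb each called in 1 of the 8 fits without 1 mouse (adjusted p up to 0.125 and 0.119) and Cd14 in 4 (up to 0.0736). The T cell list summed to 10.3, 6.48, 8.197 and 6.74 CPM in WT mice, 25.5, 41.02, 28.5 and 16.4 CPM in RC/RC mice and 13.2, 11.3, 30.6 and 13.5 CPM in RC/RC:Casp1KO mice, with Lck its most abundant gene. RC/RC:Casp1KO mouse Del3_70 was highest of its group for T cell, macrophage and antibody genes alike. Of the 20 T cell receptor rows, 3 were tested, and Trac and Trbc2 rose in RC/RC kidneys by 1.64 and 2.32. Fat markers differed widely between the RC/RC libraries. Adipoq was at 0.0382, 99.8, 0 and 11.6 CPM in RC/RC mice and Plin1 at 0, 56.5, 0 and 8.19 CPM, so that RC/RC mouse RC139, the mouse with the highest antibody level, was also highest for both fat genes. The adrenal markers Cyp11b1 and Cyp21a1 and the lymph node markers Glycam1 and Madcam1 were below 1 CPM in every mouse. The part of these tissues in the antibody levels was not tested. In the fit without RC/RC mouse RC139, 74 immunoglobulin genes were called in RC/RC against WT, all higher. Of all genes tested in that fit, 13.0% were higher and 9.27% lower at an unadjusted p under 0.05. The kidney epithelium list, led by Slc34a1, summed to 16189 ± 1381 CPM (SD, n = 4) in WT mice, 9974 ± 2078 CPM (SD, n = 4) in RC/RC mice and 14946 ± 1154 CPM (SD, n = 4) in RC/RC:Casp1KO mice. Of its 10 genes, 4 fell in RC/RC against WT, Slc12a3 (-2.03 ± 0.33), Slc5a2 (-1.23 ± 0.28), Kl (-0.90 ± 0.24) and Nphs1 (-0.62 ± 0.16), with calls kept in 8, 6, 2 and 2 of the 8 fits without 1 mouse. Without WT mouse B6_6 or RC/RC mouse RC140 only Slc12a3 of these 4 stayed called. Of the same 10 genes, 2 rose in RC/RC:Casp1KO against RC/RC, Lrp2 (1.52 ± 0.28, adjusted p = 0.0144, edgeR), a call kept in all 8 fits without 1 mouse, and Slc12a3 (1.44 ± 0.39, adjusted p = 0.0454), a call kept in 2. The part of this list in the antibody levels was not tested. Of the blood list, all 4 haemoglobin genes and Alas2, which makes haem in red cells, fell in RC/RC against WT (Hbb-bs -1.69 ± 0.25), and the platelet gene Pf4 rose (1.34 ± 0.31). The calls of Hba-a2 and Pf4 were kept in 5 and 3 of the 8 fits without 1 mouse (adjusted p up to 0.0666 and 0.0664). Pf4 fell in RC/RC:Casp1KO against RC/RC (-1.15 ± 0.25, adjusted p = 0.0244, edgeR), a call kept in 3 of 8 (adjusted p up to 0.0707), and was the 1 gene of the blood list called there. For RC/RC:Casp1KO against WT, Alas2 (-1.37 ± 0.18), Hbb-bt (-1.33 ± 0.23), Hbb-bs (-1.18 ± 0.24) and Hba-a1 (-1.21 ± 0.25) fell, with calls kept in 8, 3, 2 and 1 of the 8 fits without 1 mouse, and Hba-a2 was not called (-1.54 ± 0.36, adjusted p = 0.0667). The 4 called lower were of 6 blood list genes tested, beside 0.893% of all genes tested called lower in that comparison.

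**Figure D5:**
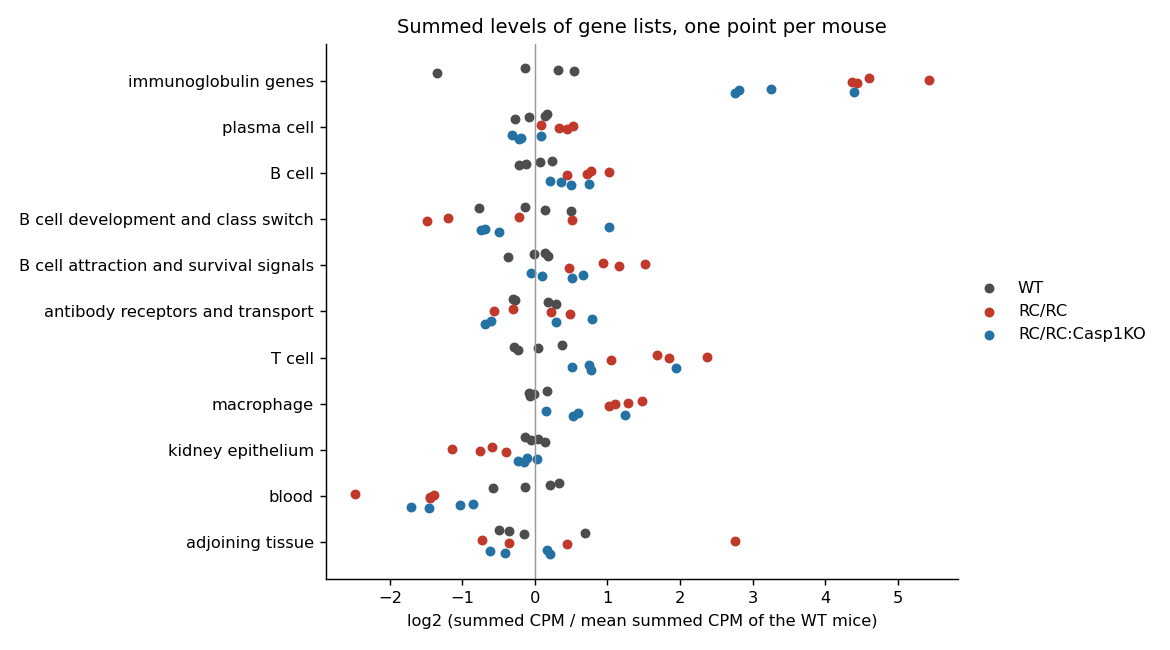
Summed CPM of each gene list in each mouse (points), as log2 of its ratio to the mean of the WT mice (line at 0). In each cystic mouse the immunoglobulin genes lie farther from 0 than any other list, and the adjoining tissue list is high in RC/RC mouse RC139 alone.

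Outside the members, the genes whose log2 CPM tracked Igj most closely over the 12 mice, ranked by Pearson's r among 15666 genes, were Sox8 (0.98), Armc7 (0.97), Gm5801 (0.96), Sox11 (0.96), Mfap5 (0.95), Ly6c2 (0.95), Stmn1 (0.95) and Lyl1 (0.95). The 12 mice fall into 3 groups that differ in antibody level, so these values are a description with no test.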

How the data were processed

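Kidney RNA from 12 mice, 4 per group, was sequenced after poly-A selection. The table deposited by the authors held raw read counts per gene and mouse, and the submitters' processing notes name STAR, CASAVA 1.8 and mm10. The counting tool, annotation and strand setting are not given in the sources used here. FPKM values, group means and the authors' own fold changes and p-values in the same table were not used. Count columns were assigned to groups by their prefix. The prefix of the RC/RC:Casp1KO columns is the name of the Casp1 deletion in the study's methods, and no column could be tied by its name to one sample, sex or replicate number. Sex was not read from the counts, and no fit took it into account.

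Counts were scaled by TMM and tested per pair of groups with edgeR 4.0.16 (quasi-likelihood test, filterByExpr at a minimum count of 10, Benjamini-Hochberg adjustment over all genes tested, threshold 0.05) in R 4.3.3. CPM used TMM factors of all 12 libraries, and levels per length divided CPM by the deposited gene length. Shares carry exact Clopper-Pearson 95% intervals, for counting error only. Near copies were searched with BLAST 2.17.0 among GENCODE vM39 transcripts matched by gene ID, which 182 of 186 genes had. The fit was also run on simulated data, with no outcome reported here. Alternatives were DESeq2 1.42.0, other scalings and filters, a dispersion shared by all 12 mice, and leaving out each mouse.

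Members and gene lists (10 lists, 114 of 118 genes in the table) were chosen with earlier results of these data known. Named genes were all constant genes and Igj; the 3 most abundant variable genes per chain; up to 3 variable genes per comparison with the largest change among those called, without overlap and at 1 CPM or more in every mouse of the higher group; the leading variable gene of each mouse; list genes called and each list's most abundant gene; Casp1 and Pkd1; and the 8 genes outside the members most correlated with Igj, on log2(CPM + 0.5). Others named were chosen after their values were seen. Some list genes enter the counts but are not reported here by name.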

Additional observations from a re-analysis of the deposited data

Results flagged for a closer look

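Of 96 groups of 4 mice examined, 14 had a mouse whose gap to the nearest other exceeded Dixon's 95% critical share of the group's range, and chance does so in about 1 in 20 groups. Values are CPM unless stated, with the range of the other 3 mice of the group. RC/RC mouse RC139 stood apart for the summed immunoglobulin genes (3147, others 1512 to 1770), for Igkc (933, others 403 to 447), for Igj (237, others 140.1 to 155), for kappa variable genes (402, others 205 to 219) and for the adjoining tissue list (268, others 23.9 to 53.4). RC/RC:Casp1KO mouse Del3_70 was high for heavy variable genes (99.7, others 33.5 to 43.6), T cell receptor genes (8.61, others 3.47 to 4.16), the T cell list (30.6, others 11.3 to 13.5) and Ighg2b (63.5, others 22.7 to 25.9). The B cell development and class switch list reached 119.8 in RC/RC:Casp1KO mouse Del3_42 (others 35.3 to 41.8). RC/RC mouse RC105 was low for the blood list (127.9, others 261 to 271).

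Among WT mice, Ighg1 was low in mouse B6_3 (0.0952, others 0.503 to 0.565), Ighm was high in mouse B6_4 (28.7, others 4.33 to 6.39), and the IgG share of heavy chain constant counts was 18.9% in mouse B6_6 (others 6.10% to 6.95%). Outside the members, the row Ighv13-2, left out as a pseudogene type, had a mean of 3.80 CPM in RC/RC mice, above its level in WT mice, where it had 4 counts in all. Mouse RC105 held 237 of its RC/RC counts (9.06 CPM), and the RC/RC median was 2.17 CPM.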

How the results depend on the processing

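No paired analysis was possible because no count column could be tied to a single labelled sample, and so to its replicate number. The number of immunoglobulin genes called was 75, 12 and 27 (RC/RC against WT, RC/RC:Casp1KO against RC/RC, RC/RC:Casp1KO against WT). With DESeq2 it was 129, 36 and 94 of the 168, 164 and 139 genes given an adjusted p. Of all genes, DESeq2 called 10.6%, 9.76% and 4.58% higher and 5.39%, 7.87% and 3.44% lower. The number was 124, 18 and 42 with all genes of 1 or more counts. It was 4, 5 and 4 of the 5, 43 and 5 genes left with at least 10 counts in every mouse. Scaling by library size alone gave 75, 6 and 28. Leaving out 1 mouse gave 72 to 90, 1 to 26 and 10 to 30. For plasma and B cell list genes the counts were 12, 3 and 2. They became 6, 3 and 1 with 10 counts in every mouse and, for RC/RC:Casp1KO against WT, 7 with DESeq2, 1 with all genes and 4 with a shared dispersion. Library size alone gave 0 in RC/RC:Casp1KO against RC/RC (5 at an unadjusted p under 0.05; 3 by DESeq2). Leaving out 1 mouse gave 6 to 11, 0 to 3 and 0 to 1. The cause was not tested, except that stricter filters left fewer genes. Thinned to 31 heavy and 64 kappa counts, mean numbers of variable genes were 19.1, 19.9 and 21.3 (heavy) and 29.2, 29.7 and 31.9 (kappa) in WT, RC/RC and RC/RC:Casp1KO mice. The summed level moved by less than 1 SD under every other scaling and membership tried. So did the share of the most abundant heavy variable gene with pseudogene types kept in. The Igha, Ighm, IgG and lambda shares were recomputed only with mice left out. Of single genes across the settings that kept all mice, 793 values kept their side of the threshold, 31 passed it and 35 lost it. Leaving out 1 mouse, 974 kept it, 20 passed it, 222 lost it and 8 reversed, all without a call. The reversals were Pkd1 in RC/RC against WT (range -0.078 to 0.16; -0.06 and -0.04 without WT mouse B6_2 and B6_3, -0.078 without RC/RC mouse RC139) and, in RC/RC:Casp1KO against RC/RC, Ighv1-26 (-0.15 to 0.56), Ighv1-81 (-0.99 to 0.46; -0.26 and -0.34 without RC/RC mouse RC139 and RC143) and Igkv12-46 (-1.79 to 0.13). Heavy variable counts were fewest in WT mice, at 31 to 143 per mouse, although WT libraries were not shallower (median 22189082 counts, beside 21749357 in RC/RC and 19853599 in RC/RC:Casp1KO).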
